A study of Mus musculus with 16 samples.

Results

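The genes Slc34a2, Tbc1d31, Cmas, Osbpl1a, Cyp2f2, Clip2, Rcan2, Chchd7, Serpine2 and Ccdc28b were described in livers of mice with and without the RNA-binding protein gene Zfp36l1. They were chosen from these same libraries, because the values of knockout and wild-type livers did not overlap on the ethanol diet or on both diets. The difference between genotypes is therefore a description of how they were chosen, and it was given no test. They were 10 of the 35275 Ensembl gene IDs in the deposited table, and all 10 were among the 11298 genes kept by a filter on low values (at least 1 FPKM in at least 4 of 16 libraries). FPKM is fragments per kilobase of gene length, scaled to library size, so levels can be set side by side between genes.

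Zfp36l1 belongs to a small family of zinc finger proteins that bind AU-rich stretches in the 3′ untranslated region (UTR) of messenger RNAs and recruit the enzymes that shorten the poly(A) tail, after which the transcript decays. Bound transcripts are known to live longer in cells that lack such a protein. The 10 genes are not known as members of one pathway: they encode a phosphate carrier, a sugar-activating enzyme, a cytochrome P450, a sterol-binding protein, a microtubule-binding protein, a calcineurin regulator, a mitochondrial protein, a protease inhibitor and proteins of the centrosome and cilium.

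Liver RNA came from mice with an intact Zfp36l1 gene (WT) and mice with a liver-specific deletion of it (LKO). Both genotypes received a control or an ethanol-containing diet, which made 4 groups of 4 libraries: WT control, LKO control, WT ethanol and LKO ethanol. The libraries were made from total RNA of liver tissue, so that fewer cells of a type and less RNA per cell cannot be told apart. Strain, sex, age, the promoter driving the deletion, the ethanol dose and the feeding time are not given in the sources used here. Libraries are numbered 1 to 4 within a group in record order as names only, and the labels do not say whether any pair across groups. Nothing in the labels says that the libraries of a group came from separate animals, so p-values measure only the spread between these libraries.

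Zfp36l1 itself measured 9.30 to 25.5 FPKM in the 8 WT libraries and 0.572 to 1.76 FPKM in the 8 LKO libraries. The libraries held 19069828 to 24768501 reads, except WT ethanol library 2 with 9884479. That library also ordered the genes differently, with a Spearman correlation across genes of 0.664 to 0.721 with the other 15, which correlated at 0.858 to 0.985 with each other. Its reads were 22.5% mitochondrial, whereas this share was 3.64 to 6.97% in the other 15. Where it moved a value of the 10 genes most, the value without it is given too. Among the other 15, libraries 1 and 2 of each group lay on one side of the first component of within-group variation and libraries 3 and 4 on the other, and this component carried 40.0% of that variance. The labels name no batch. Across the 16 libraries the hepatocyte markers Alb, Apoa1, Ttr and Serpina1c summed to 40633 to 71417 FPKM, and those of each non-hepatocyte type checked to at most 1929 FPKM.

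The 3′ UTRs were searched for TATTTAT, the DNA form of the AU-rich core that proteins of this family are known to bind, because the genotypes differ in one such protein. The search used the sense strand of the longest 3′ UTR of each gene in GENCODE M21 (build GRCm38). Of the 10 genes, 5 held the motif: Slc34a2, Tbc1d31, Cmas and Rcan2 once each and Osbpl1a at 2 places. Of the 10516 kept genes with a 3′ UTR, 3048 held it, or 29.0%. Of the 5 genes that were higher in LKO livers 4 held it, and of the 5 that were lower 1 did, Rcan2. The share was higher for longer regions: among kept genes with a 3′ UTR of similar length, 6.996% held the motif for the 204 bases of Tbc1d31, 9.71% for the 374 bases of Cmas, 22.4% for the 891 bases of Osbpl1a, 39.1% for the 2034 bases of Slc34a2 and 44.6% for the 2383 bases of Rcan2. Cyp2f2, Clip2, Chchd7, Serpine2 and Ccdc28b held none, with shares at their lengths from 4.37% for Ccdc28b to 31.0% for Clip2, and no match says only that these letters are not in these windows. For the genes with a single match, the windows of 29 bases around the motif, which is in capitals, read 5′ to 3′ as follows. Those of Osbpl1a are not shown.
Slc34a2, chr5:53070898-53070926, plus strand: tttatgtggcaTATTTATagctatgcatc
Tbc1d31, chr15:57969913-57969941, plus strand: tttttttcaacTATTTATtctaatttttt
Cmas, chr6:142775634-142775662, plus strand: tgctgggatttTATTTATtgtaaagcaat
Rcan2, chr17:44037906-44037934, plus strand: tcagacaaaccTATTTATtataaaatctc
In Tbc1d31 the motif lay at base 67 of the 3′ UTR with a run of T before it, in Cmas at base 305 near the end of a short 3′ UTR, in Slc34a2 at base 1279 and in Rcan2 at base 784. A match is a description of the sequence, and binding was not measured.

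RefSeq promoters (build GRCm38.p6, from 250 bases before the annotated start to 50 bases from it on) were found for 6 of the 10 genes: Slc34a2, Cmas, Cyp2f2, Clip2, Rcan2 and Serpine2. Tbc1d31, Osbpl1a, Chchd7 and Ccdc28b had no entry. Shown are those of the genes with the highest positive ethanol difference in LKO (Slc34a2) and in WT (Clip2) and those of 2 genes higher in every LKO library than in every WT library (Cmas and Cyp2f2).
Slc34a2 promoter, chr5:53049103-53049402, plus strand: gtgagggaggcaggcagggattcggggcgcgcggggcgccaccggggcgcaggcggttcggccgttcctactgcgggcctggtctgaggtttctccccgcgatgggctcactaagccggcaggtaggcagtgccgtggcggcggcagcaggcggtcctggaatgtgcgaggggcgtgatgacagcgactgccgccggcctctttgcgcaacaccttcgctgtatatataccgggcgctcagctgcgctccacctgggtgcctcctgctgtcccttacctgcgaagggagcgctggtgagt
Cmas promoter, chr6:142756436-142756735, plus strand: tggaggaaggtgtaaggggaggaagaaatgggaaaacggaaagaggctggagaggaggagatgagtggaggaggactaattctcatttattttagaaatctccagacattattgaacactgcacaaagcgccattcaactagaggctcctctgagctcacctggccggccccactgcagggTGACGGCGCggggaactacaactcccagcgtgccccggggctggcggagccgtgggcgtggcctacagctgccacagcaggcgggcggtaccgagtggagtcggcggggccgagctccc
Cyp2f2 promoter, chr7:27119705-27120004, plus strand: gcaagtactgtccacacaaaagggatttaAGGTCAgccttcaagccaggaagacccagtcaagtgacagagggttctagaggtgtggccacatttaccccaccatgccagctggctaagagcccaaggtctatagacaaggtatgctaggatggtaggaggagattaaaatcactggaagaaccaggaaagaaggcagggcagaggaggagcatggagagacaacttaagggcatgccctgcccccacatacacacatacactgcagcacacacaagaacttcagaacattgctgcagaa
Clip2 promoter, chr5:134552385-134552684, minus strand: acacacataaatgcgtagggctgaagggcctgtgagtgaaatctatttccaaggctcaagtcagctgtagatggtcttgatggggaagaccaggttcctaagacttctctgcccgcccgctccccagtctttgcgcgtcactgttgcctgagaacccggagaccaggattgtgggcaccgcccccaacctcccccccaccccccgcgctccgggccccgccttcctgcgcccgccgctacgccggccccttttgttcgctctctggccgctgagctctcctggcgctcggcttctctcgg
Capitals mark matches to 6 motifs searched on both strands: the TATA box core TATAAA, the box CCAAT, the E-box CACGTG, the cyclic AMP response element TGACGTCA, the antioxidant response core TGACNNNGC and the nuclear receptor core AGGTCA. The Cmas promoter held TGACNNNGC 69 bases before the start, and 12.4% of all 32851 promoters held this motif. The Cyp2f2 promoter held AGGTCA 221 bases before the start, and 16.3% of all promoters held it. Of the 3 Rcan2 promoters 1 held CCAAT, 98 bases before the start, a motif in 37.4% of all promoters. None of the promoters of the 6 genes held the TATA box core, the E-box or the cyclic AMP response element. The Cyp2f2 promoter was 50.3% GC with 0 CpG, whereas that of Serpine2 was 77.7% GC with 41 CpG and that of Slc34a2 68.7% with 30, against medians of 52.7% and 7 over all promoters.

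**Figure D1:**
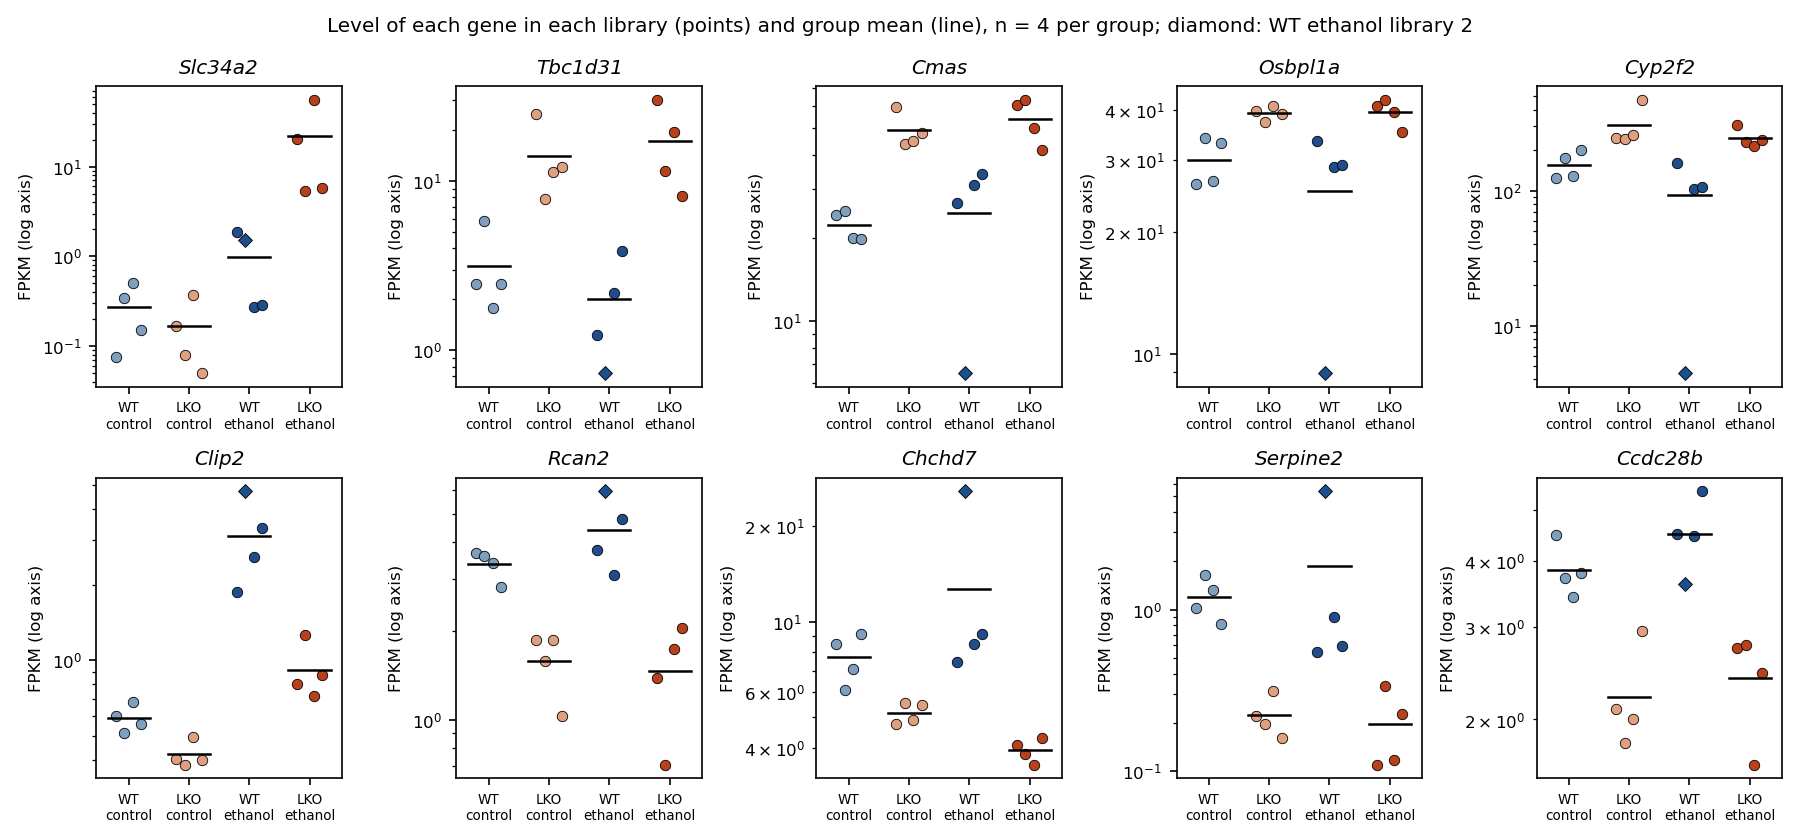
FPKM (log axis) of the 10 genes in each of the 16 libraries, with a line at each group mean (n = 4) and a diamond for WT ethanol library 2. The top row holds the genes higher in LKO and the bottom row those lower, and the diamond is the lowest point for Tbc1d31, Cmas, Osbpl1a and Cyp2f2 and the highest for Clip2, Rcan2, Chchd7 and Serpine2.

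The carrier and enzyme genes are taken first. Slc34a2 (ENSMUSG00000029188, chromosome 5, 53038081 to 53071664, plus strand, GRCm38) encodes a sodium-dependent phosphate cotransporter known best from lung and intestine. It measured 0.0754, 0.341, 0.511 and 0.149 FPKM in WT control libraries 1 to 4 and 0.168, 0.0797, 0.374 and 0.05002 FPKM in LKO control libraries. On the ethanol diet it measured 1.86, 1.501, 0.276 and 0.289 FPKM in WT and 20.1, 5.37, 55.6 and 5.76 FPKM in LKO. The control groups overlapped each other, and every LKO ethanol library lay above all 12 others, although LKO ethanol libraries themselves differed 10.3-fold. Group means were 0.269 ± 0.196, 0.168 ± 0.146, 0.981 ± 0.820 and 21.7 ± 23.6 FPKM in the same order (SD, n = 4 each). The 3 lower groups were not apart from each other beyond their spread. The LKO minus WT difference was −0.12 on the control diet and 3.02 with ethanol, on the log2(FPKM + 1) scale used for all differences here. In all 8 control-diet libraries this gene rested on 5 to 52 reads, and it passed the filter through the 4 LKO ethanol libraries and 2 WT ethanol libraries. An antisense gene, Gm17182, overlaps it, with a mean of at most 0.146 FPKM in any group, and the strandedness of the counting is not given in the sources used here.

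Cmas (ENSMUSG00000030282, chromosome 6, 142756686 to 142775714, plus strand) encodes the nuclear enzyme that links sialic acid to CMP, the activated form used to cap glycoproteins such as those the liver secretes. It measured 24.3, 25.03, 20.03 and 19.8 FPKM in WT control and 59.6, 43.8, 45.0 and 48.1 FPKM in LKO control libraries. With ethanol feeding it measured 26.8, 6.49, 31.2 and 34.0 FPKM in WT and 60.4, 63.3, 49.8 and 41.5 FPKM in LKO. All 8 LKO libraries lay above all 8 WT libraries, and the 2 LKO groups overlapped, as did the WT groups. The means were 22.3 ± 2.73 and 49.1 ± 7.21 FPKM on the control diet, 2.20-fold apart, and 24.6 ± 12.5 and 53.7 ± 10.02 FPKM on the ethanol diet, 2.18-fold apart. The log2 difference on the ethanol diet was 1.3, and it was 0.78 without WT ethanol library 2, where the ratio of means was 1.75.

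Cyp2f2 (ENSMUSG00000052974, chromosome 7, 27119909 to 27133660, plus strand) encodes a cytochrome P450 that oxidises naphthalene and other small aromatics, and in liver it is known as a gene of periportal hepatocytes. It had the highest level of the 10 genes. Its values were 124, 174, 129 and 199 FPKM in WT control and 247, 242, 259 and 473 FPKM in LKO control libraries. The ethanol-diet values were 160, 4.44, 102 and 106 FPKM in WT and 306, 228, 216 and 236 FPKM in LKO. Every LKO library was above every WT library, LKO control library 4 stood above the rest of its group, and WT ethanol library 2 stood far below its own. The means were 156 ± 36.2 and 305 ± 112 FPKM on the control diet and 93.3 ± 64.8 and 247 ± 40.6 FPKM on the ethanol diet. The log2 difference of 2.14 on the ethanol diet was 1.02 without WT ethanol library 2, beside 0.93 on the control diet. The antisense gene Gm15883, which overlaps Cyp2f2, had group means of 2.06 to 3.24 FPKM.

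Of the genes for lipid transfer and membrane traffic, Osbpl1a (ENSMUSG00000044252, chromosome 18, 12755314 to 12941841, minus strand) encodes an oxysterol-binding protein of late endosomes that senses cholesterol and helps position these organelles. It measured 26.2, 34.1, 26.7 and 33.1 FPKM in WT control and 39.7, 37.3, 40.8 and 39.1 FPKM in LKO control libraries. With ethanol it measured 33.5, 8.95, 28.9 and 29.2 FPKM in WT and 40.8, 42.3, 39.6 and 35.2 FPKM in LKO. The LKO libraries were all above the WT libraries but by a narrow margin, and WT ethanol library 2 was again low. Its difference was the smallest of the higher genes apart on both diets, 0.38 on the control diet and 0.77 with ethanol, and 0.36 on the latter without WT ethanol library 2. Among the genes described here, Osbpl1a had the narrowest gap on the ethanol diet, with a lowest LKO value 1.05 times the highest WT value. On that diet 304 kept genes did not overlap between genotypes, so Osbpl1a need not be the closest to overlap among them. Psmb10, a proteasome subunit gene, just failed to be apart on that diet. It measured 17.4 to 29.8 FPKM in LKO ethanol and 29.8 to 228 FPKM in WT ethanol, where the ranges met.

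Tbc1d31 (ENSMUSG00000022364, chromosome 15, 57912199 to 57970067, plus strand) encodes a protein of the centriolar satellites, the granules around the centrosome, with a domain of the kind found in regulators of Rab GTPases. It measured 2.46, 5.84, 1.77 and 2.47 FPKM in WT control and 24.7, 7.88, 11.3 and 12.1 FPKM in LKO control libraries. In the ethanol groups it measured 1.23, 0.732, 2.18 and 3.86 FPKM in WT and 30.2, 11.4, 19.5 and 8.20 FPKM in LKO. All LKO libraries exceeded all WT libraries, and library 1 was the highest in both LKO groups. The means were 3.14 ± 1.83 and 14.0 ± 7.39 FPKM on the control diet, 4.47-fold apart, and 2.0 ± 1.38 and 17.3 ± 9.83 FPKM on the ethanol diet, 8.66-fold apart. Among the 9 genes apart on both diets it had the largest log2 difference on each, 1.83 and 2.56, and without WT ethanol library 2 the latter was 2.34.

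The other 5 genes were lower in LKO livers. Clip2 (ENSMUSG00000063146, chromosome 5, 134489383 to 134552434, minus strand) encodes a protein that links membranes to the growing plus ends of microtubules. It measured 0.598, 0.512, 0.682 and 0.557 FPKM in WT control and 0.405, 0.383, 0.494 and 0.401 FPKM in LKO control libraries. With ethanol it measured 1.87, 4.72, 2.59 and 3.38 FPKM in WT and 0.804, 1.26, 0.722 and 0.873 FPKM in LKO. The 4 groups did not overlap, in the order LKO control, WT control, LKO ethanol and WT ethanol, though with quantile normalization the control groups did. The LKO minus WT difference was −0.16 on the control diet and −1.07 with ethanol, or −0.90 without WT ethanol library 2. It passed the filter through the 4 WT ethanol libraries and 1 LKO ethanol library, and its control-diet values rested on 46 to 83 reads.

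Rcan2 (ENSMUSG00000039601, chromosome 17, 43801351 to 44039516, plus strand) encodes a regulator of calcineurin, the calcium-dependent phosphatase that acts on NFAT transcription factors. It measured 3.68, 3.59, 3.41 and 2.81 FPKM in WT control and 1.87, 1.58, 1.87 and 1.03 FPKM in LKO control libraries. Under ethanol the values were 3.77, 5.95, 3.09 and 4.78 FPKM in WT and 1.39, 0.705, 1.74 and 2.04 FPKM in LKO. All 8 LKO libraries lay below all 8 WT libraries, and the diets overlapped within each genotype. The WT mean was 2.12 times the LKO mean on the control diet and 2.997 times on the ethanol diet, or 2.64 times without WT ethanol library 2.

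Chchd7 (ENSMUSG00000042198, chromosome 4, 3938888 to 3951046, plus strand) encodes a small protein of the mitochondrial intermembrane space with paired cysteine motifs. It measured 8.51, 6.09, 7.11 and 9.12 FPKM in WT control and 4.76, 5.54, 4.88 and 5.46 FPKM in LKO control libraries. The ethanol-diet values were 7.45, 25.8, 8.49 and 9.13 FPKM in WT and 4.07, 3.82, 3.53 and 4.30 FPKM in LKO. LKO libraries were below WT libraries throughout, LKO ethanol libraries were below LKO control libraries, and WT ethanol library 2 was high. The means were 7.71 ± 1.37 and 5.16 ± 0.396 FPKM on the control diet and 12.7 ± 8.76 and 3.93 ± 0.329 FPKM on the ethanol diet. Without WT ethanol library 2 the WT ethanol mean was 8.36 ± 0.848 FPKM (n = 3) and the log2 difference was −0.92 in place of −1.3.

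Serpine2 (ENSMUSG00000026249, chromosome 1, 79794197 to 79861180, minus strand) encodes a secreted inhibitor of thrombin, urokinase and other serine proteases. It measured 1.02, 1.64, 1.33 and 0.820 FPKM in WT control and 0.220, 0.196, 0.315 and 0.160 FPKM in LKO control libraries. With ethanol it measured 0.545, 5.39, 0.898 and 0.592 FPKM in WT and 0.110, 0.335, 0.118 and 0.226 FPKM in LKO. The genotypes were apart on both diets, and WT ethanol library 2 was high. The WT mean was 5.40 times the LKO mean on the control diet, and with ethanol 9.41 times with that library and 3.44 times without it. The gene passed the filter only through 3 WT control libraries and WT ethanol library 2, and would not have passed without that library. LKO values rested on 8 to 26 reads.

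Ccdc28b (ENSMUSG00000028795, chromosome 4, 129619274 to 129623947, minus strand) encodes a coiled-coil protein that works at the primary cilium and modifies the ciliopathy Bardet-Biedl syndrome. Its levels were 4.49, 3.72, 3.42 and 3.79 FPKM in WT control and 2.09, 1.80, 2.01 and 2.94 FPKM in LKO control libraries. On ethanol they were 4.51, 3.61, 4.46 and 5.44 FPKM in WT and 2.73, 2.77, 1.64 and 2.45 FPKM in LKO. All LKO libraries were below all WT libraries, and each genotype's diets overlapped. The log2 difference was −0.61 on the control diet and −0.70 with ethanol, from 33 to 100 reads per library. Tmem234 lies on the opposite strand over Ccdc28b with group means of 23.8 to 29.8 FPKM, and if strand was not used in counting, reads of the overlap cannot be told apart.

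Across the genotype comparison, 4 of the 10 genes were higher without overlap on the control diet, 5 were lower and 1, Slc34a2, overlapped. Groups did not overlap for 9.25% of all kept genes in that comparison (1.61% higher and 7.64% lower). With ethanol 5 were higher and 5 lower, and 2.69% of all kept genes were apart (0.894% higher and 1.80% lower). Both shares stand beside counts that the rule fixed, so nothing is read from them. The 9 genes apart on both diets kept the same direction, as 47 kept genes did (0.416%), and 8 of the 10, all but Slc34a2 and Clip2, had every LKO library on one side of every WT library, as 19 kept genes did (0.168%). By the limma test over all kept genes at an adjusted p under 0.05, 1 gene (0.00885%) was called with control feeding and 9 (0.0797%) with ethanol. The median difference over all kept genes was −0.103 on the control diet and −0.031 with ethanol, and quantile normalization moved the former to −0.002. Without WT ethanol library 2 the latter was −0.227.

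**Figure D2:**
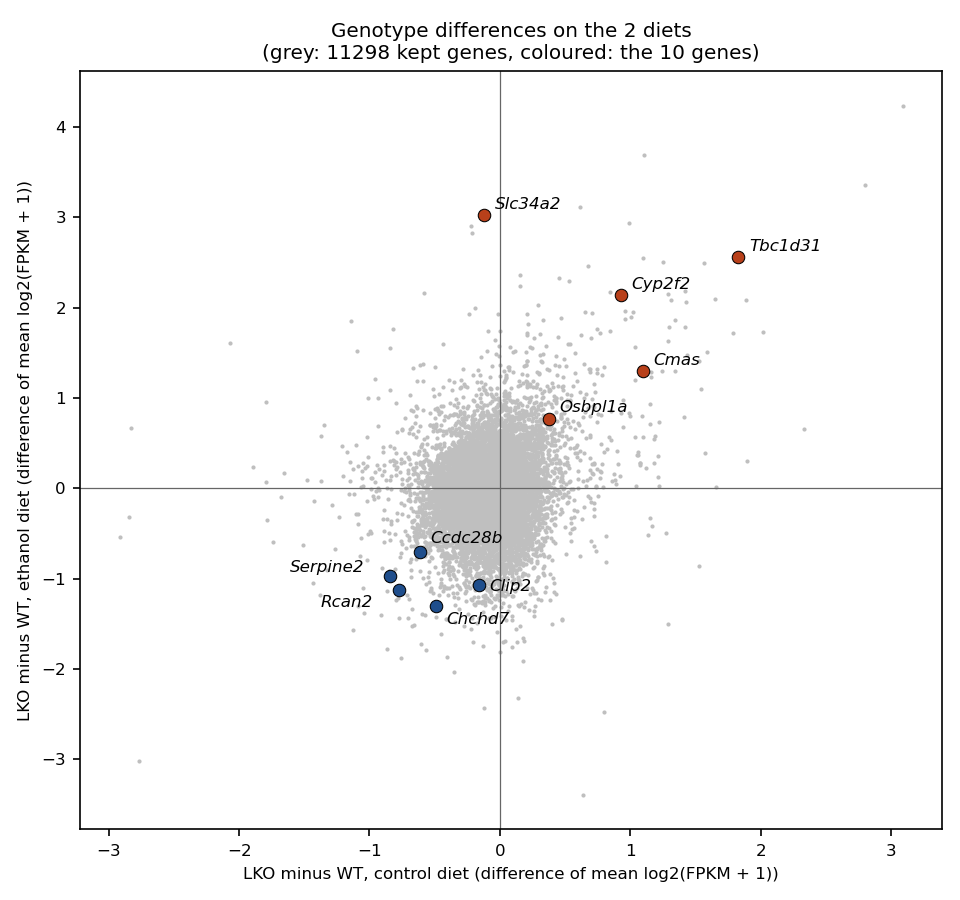
LKO minus WT difference of mean log2(FPKM + 1) with control feeding (x axis) and with ethanol (y axis) for 11298 kept genes in grey and the 10 genes in colour. Slc34a2 sits at −0.12 and 3.02 and Clip2 at −0.16 and −1.07, while Tbc1d31 reaches 1.83 and 2.56.

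The genotype differences on the 2 diets are set side by side, and no interaction was tested because the genes were chosen on these contrasts. All 10 were chosen for being apart on the ethanol diet, which favours larger differences there, so nothing is read from the order. On the log2(FPKM + 1) scale the ethanol-diet difference was larger in size than the control-diet difference for all 10 genes, and without WT ethanol library 2 for 7 of them. Cmas had 0.78 against 1.10, Osbpl1a 0.36 against 0.38 and Serpine2 −0.49 against −0.84. The sides of the split between libraries are given for 2 genes. In Tbc1d31 the control-diet difference was 1.64 in libraries 1 and 2 and 2.03 in libraries 3 and 4, and in Rcan2 it was −0.77 and −0.76. On the ethanol diet the sides were further apart, at 3.32 and 1.80 in Tbc1d31 and −1.51 and −0.75 in Rcan2, with WT ethanol library 2 among libraries 1 and 2.

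The response to the ethanol diet within a genotype is described for the 10 genes without a test, because the ethanol libraries served to choose the genes, and Slc34a2 and Clip2 passed the filter through ethanol libraries alone. Over all kept genes the limma test called 472 in WT livers (4.18%, with 2.58% called higher) and 48 in LKO livers (0.425%, with 0.168% called higher).

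Clip2 had a mean of 3.14 ± 1.22 FPKM on ethanol against 0.587 ± 0.0723 FPKM on the control diet in WT, a log2 difference of 1.34 (SE 0.183), and all 4 ethanol libraries lay above all 4 control libraries. In LKO livers its ethanol libraries were also above its control libraries, with a difference of 0.42 (SE 0.183). Slc34a2 had a mean of 0.168 ± 0.146 FPKM in LKO control and 21.7 ± 23.6 FPKM in LKO ethanol libraries, a difference of 3.70 (SE 0.506), and was higher in 4 of 4 ethanol libraries than in any control library. The difference was 3.37 in libraries 1 and 2 and 4.03 in libraries 3 and 4. In WT livers it was 0.56 (SE 0.506), with libraries 1 and 2 at 1.86 and 1.501 FPKM above the control range and libraries 3 and 4 within it.

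Of the other 8 genes Cyp2f2 had the largest difference in WT with all libraries, −1.47 (SE 0.721). Without WT ethanol library 2 it was −0.35 and no longer the largest in size. Cmas had −0.07 in WT, but 0.44 with limma array weights, which count each library by its precision, 0.44 without WT ethanol library 2, and 0.48 without that library and with a term for the split between libraries. The array weights of WT ethanol libraries 1 to 4 were 0.278, 0.0418, 5 and 1.06, so that fit rests mostly on library 3 in this group. Chchd7 was lower in every LKO ethanol library than in every LKO control library, by −0.32 (SE 0.288). In WT its difference was 0.49 (SE 0.288) with overlapping groups, and 0.11 to 0.67 leaving out 1 library. Groups did not overlap between diets for 1 of the 10 genes in WT (2 without WT ethanol library 1, 2 or 3), against 10.1% of all kept genes (5.62% higher), and for 3 in LKO (Slc34a2 and Clip2 higher, Chchd7 lower), against 12.3% (8.15% higher and 4.14% lower). For Tbc1d31, Cmas, Osbpl1a, Rcan2, Serpine2 and Ccdc28b the differences ran from −0.48 to 0.28 in WT and from −0.09 to 0.25 in LKO.

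**Figure D3:**
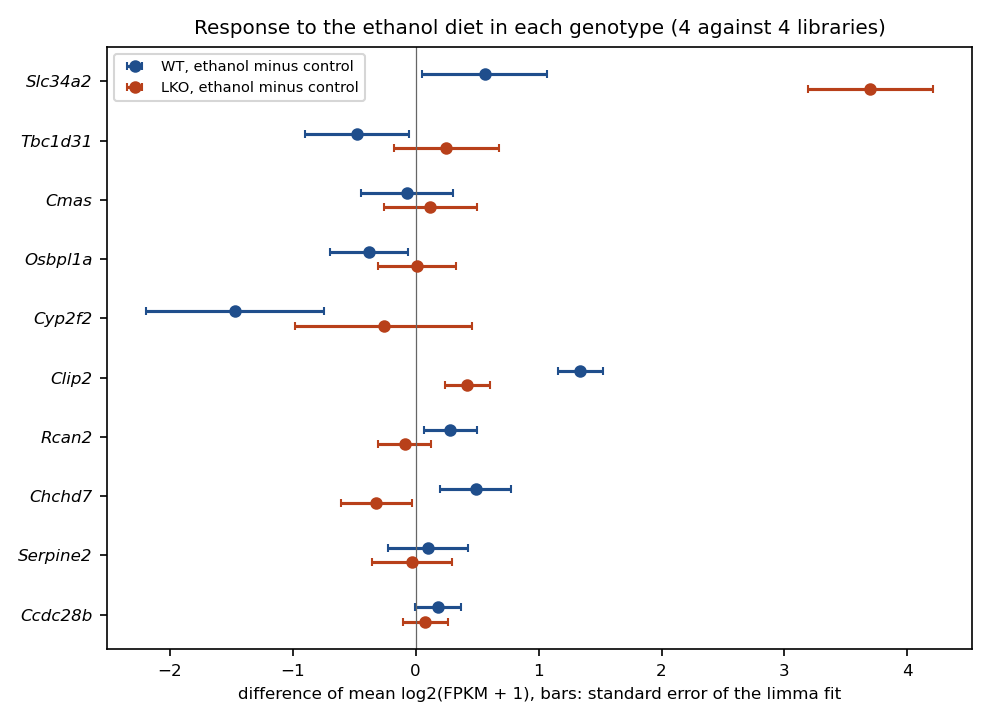
Ethanol minus control difference of mean log2(FPKM + 1) for the 10 genes in WT (blue) and LKO (red) livers, with bars of 1 standard error of the limma fit. Slc34a2 stands at 3.70 in LKO and Clip2 at 1.34 in WT, above the other values.

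Genes related to the 10 in function were examined as 9 lists with 102 genes, of which 85 were kept. Calls in these lists are those of the main limma fit (all 16 libraries, equal weights). With array weights more of the 85 were called: 38 for ethanol in WT, 10 in LKO and 19 between genotypes on the ethanol diet. By the main fit 3 of the 85 were called in the WT ethanol comparison (3.53%, beside 4.18% of all kept genes). Plaur, the urokinase receptor gene, rose by 1.84 (SE 0.366, limma adjusted p = 0.0124). Bbs4, a BBSome subunit gene, rose by 0.64 (SE 0.164, limma adjusted p = 0.0360), and Osbpl8, which encodes a lipid-transfer protein of the endoplasmic reticulum, fell by 0.97 (SE 0.237, limma adjusted p = 0.0296). The Bbs4 call was lost under 11 of the 22 settings and that of Osbpl8 under 4, while Plaur kept its call. In the other 3 comparisons limma and voom each called 0 of the 85. At an unadjusted p under 0.05 there were 10 in the LKO ethanol comparison, 1 in LKO against WT on the control diet and 9 with ethanol, or 11.8, 1.18 and 10.6%, against 9.19, 3.45 and 11.9% of all kept genes.

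The phosphate transporters around Slc34a2 had 3 of 5 genes kept and 0 called in any comparison by the main fit. Slc20a1, a broadly expressed sodium-phosphate carrier, had a mean of 11.6 ± 0.839 FPKM in LKO control and 34.9 ± 26.0 FPKM in LKO ethanol libraries (difference 1.29, limma adjusted p = 0.184). Slc20a2 had 18.3 ± 2.03 and 28.8 ± 5.45 FPKM (0.62, limma adjusted p = 0.630). Both had LKO ethanol libraries above LKO control libraries, as 8.15% of all kept genes did. The median ethanol difference of the 3 kept genes was 0.62 in LKO and 0.36 in WT, or 0.78 in WT without WT ethanol library 2. The family members Slc34a1 and Slc34a3 were not kept by the filter.

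Of 14 sialic acid pathway genes around Cmas 11 were kept, and the main limma fit called none. The 2 most abundant, the sialyltransferase genes St3gal5 and St3gal4, differed between genotypes by −0.10 and 0.03 on the control diet and by 0.20 and 0.71 on the ethanol diet. The median difference of the 11 was 0.11 on the control diet (0.20 after quantile normalization) and 0.12 with ethanol, beside −0.103 and −0.031 for all kept genes. Of the 11 oxysterol-binding protein genes 8 were kept, with a median of −0.11 (0.01 after quantile normalization) and 0.01 in the same comparisons. Without WT ethanol library 2 the ethanol-diet medians of these lists were −0.08 and −0.22, beside −0.227 for all kept genes. Osbpl9, the most abundant relative, measured 43.0 ± 8.45 FPKM in WT control and 47.6 ± 7.51 FPKM in LKO control libraries.

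The 13 periportal hepatocyte genes listed with Cyp2f2 were all kept, and the main limma fit called 0 in any comparison. Their LKO minus WT difference was above 0 for 10 of 13 on the control diet, with a median of 0.24. On the ethanol diet it was above 0 for 11 of 13 with a median of 0.33, and for 6 of 13 with a median of −0.03 without WT ethanol library 2. The medians of all kept genes were −0.031 and, without that library, −0.227. Pck1, which encodes a gluconeogenic enzyme, measured 982 ± 576 FPKM in WT control and 1252 ± 713 FPKM in LKO control libraries, and Ass1, a urea cycle gene, 816 ± 378 and 1193 ± 663 FPKM. Of 6 pericentral markers 2 were called for ethanol in WT: Glul fell by 1.93 (limma adjusted p = 0.0235) and Cyp2e1 by 1.61 (limma adjusted p = 0.0241), and the differences of the other 4, which were not called, were −1.38 for Oat, −1.04 for Slc1a2, −0.41 for Cyp1a2 and −0.04 for Lect2. The LKO minus WT difference of these 6 was above 0 for 3 on the control diet (median 0.02) and for 6 of 6 with ethanol (median 0.91), over all 16 libraries. The 6 markers, of which Cyp2e1 was the most abundant, summed to 1411 to 2022 FPKM in WT ethanol, 1536 to 4470 in LKO ethanol and 3387 to 5675 FPKM in the control groups. None of the 6 was at 0 in any group, and their part in the Cyp2f2 values was not tested.

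Of the 10 plus-end tracking protein genes around Clip2 8 were kept and 0 called by the main fit. Their ethanol response in WT was above 0 for 8 of 8, with a median of 0.20 (0.43 without WT ethanol library 2 and 0.56 with array weights). The median of all kept genes was −0.024 (0.166 without WT ethanol library 2 and 0.229 with array weights). In LKO the response of the plus-end genes was above 0 for 7 of 8, with a median of 0.30, beside 0.056 for all kept genes. The most abundant, Mapre3, had 9.90 ± 4.29 FPKM in WT control and 22.8 ± 4.83 FPKM in WT ethanol libraries (difference 1.18, limma adjusted p = 0.0539). The stellate cell marker Des rose by 0.93 in WT on ethanol (limma adjusted p = 0.0296), 1 of 8 stellate and fibroblast markers called, while Colec10, another of them, had −1.23 (limma adjusted p = 0.0928). The 8 summed to 45.3 to 155 FPKM in WT control libraries, to 23.95 FPKM in WT ethanol library 2 and to 125 to 169.6 FPKM in the other 3 WT ethanol libraries. Their part in the Clip2 response was not tested.

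For calcineurin and its regulators around Rcan2, 8 of 11 were kept and 0 called by the main fit. Rcan1, another gene of the same family, measured 10.4 ± 3.75 FPKM in WT control and 9.80 ± 2.29 FPKM in LKO control libraries, and 19.2 ± 7.15 and 18.4 ± 7.65 FPKM on ethanol, so the genotypes overlapped where Rcan2 did not. Of the 13 mitochondrial relatives of Chchd7, 12 were kept and 0 called by the main fit. Their median genotype differences were 0.07 and −0.16, the latter 0.03 without WT ethanol library 2, where that of all kept genes was −0.227. Of the 15 centriolar satellite and BBSome genes listed with Tbc1d31 and Ccdc28b, 13 were kept. Their median genotype difference was −0.17 on the control diet, −0.01 after quantile normalization, and 0.05 on the ethanol diet. Without WT ethanol library 2 the latter was −0.22, beside −0.227 for all kept genes. Mkks and Pcm1, the most abundant, differed between genotypes by 0.01 and −0.25 on the control diet.

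The proteases and inhibitors around Serpine2 included abundant liver products. Plg, which encodes plasminogen, measured 879 ± 168 FPKM in WT control and 804 ± 153 FPKM in LKO control libraries, and Serpinc1, the antithrombin gene, 1054 ± 120 and 1054 ± 13.6 FPKM. The 9 kept genes of this list had a median genotype difference of 0.02 on the control diet (−0.09 after quantile normalization) and 0.09 with ethanol (−0.12 without WT ethanol library 2), beside −0.84 and −0.97 for Serpine2 (−0.49 without that library). Without that library the ethanol-diet median of all kept genes was −0.227. Cholangiocyte markers summed to 87.3 FPKM in WT ethanol library 2, where Serpine2 was at 5.39 FPKM, and to 10.9 to 28.9 FPKM in the other 15 libraries, and 2 of the 8 markers were at 0 in that library. Red cell markers summed to 1929 FPKM there and to 95.2 to 282 FPKM elsewhere. Sinusoidal endothelium markers, at 12.3 FPKM, and stellate and fibroblast markers, at 23.95 FPKM, were lowest there, with 37.9 to 127 and 45.3 to 169.6 FPKM in the other 15. Their part in the values of that library was not tested.

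Genes that start within 250 kb of the start of one of the 10 gave 48 kept neighbours, from 2 each near Osbpl1a, Chchd7 and Serpine2 to 13 near Ccdc28b. None was called in LKO against WT on either diet. On the control diet 4 had groups that did not overlap, all lower in LKO: Wdyhv1 and Zhx1 near Tbc1d31, Impact next to Osbpl1a and Iqcc next to Ccdc28b, with differences of −0.34, −0.40, −0.30 and −0.39. With ethanol 1 did, the ribosomal protein gene Rps20 near Chchd7, at −1.22, or −0.75 without WT ethanol library 2. Beside these counts, 9.25% of all kept genes were apart on the control diet (7.64% lower) and 2.69% with ethanol (1.80% lower), so neither count stands out from the background. These 5 were singled out after their values were seen. Iqcc and Rps20 lay on the same side as their neighbour among the 10, and the other 3 on the opposite side. The nearest kept neighbours of Tbc1d31 and Cyp2f2 upstream, Derl1 and Cyp2a12, had differences of 0.35 and 0.29 on the control diet with overlapping groups.

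**Figure D4:**
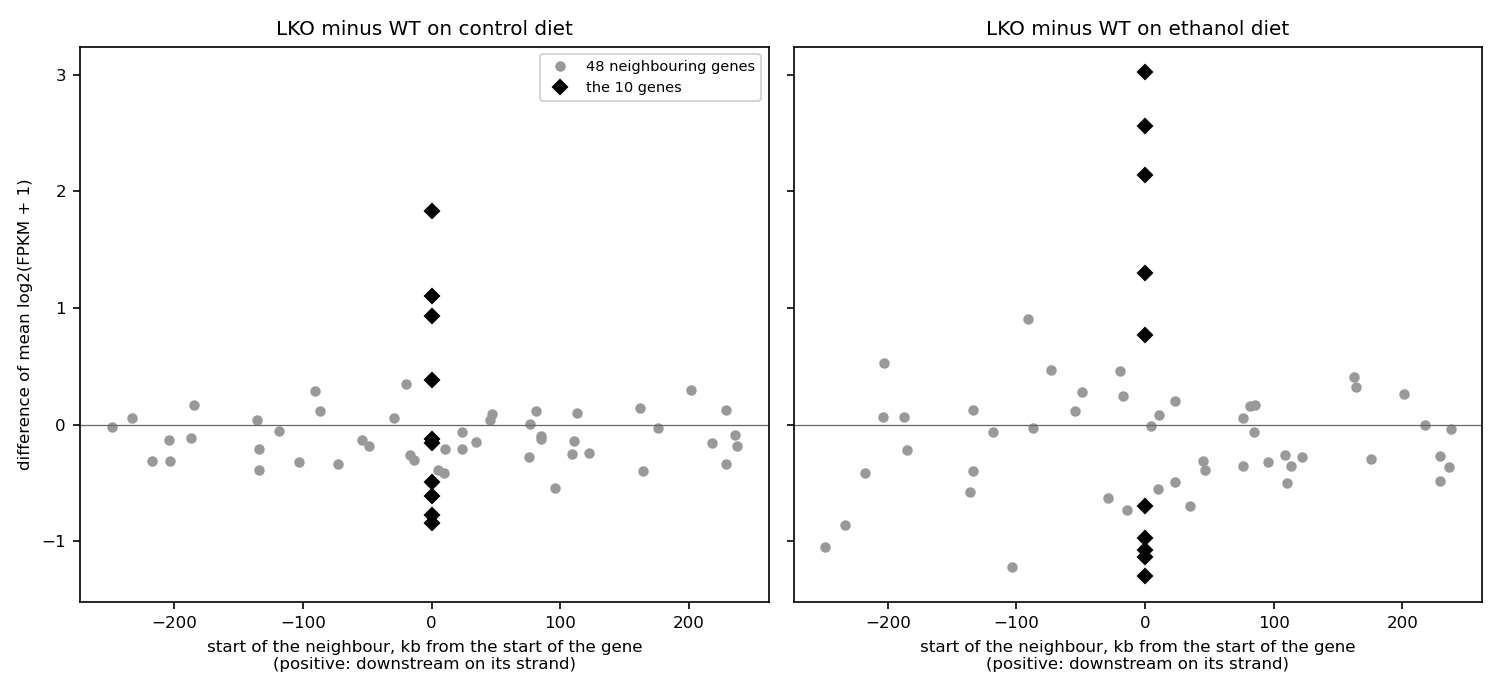
LKO minus WT difference of mean log2(FPKM + 1) on each diet (y axis) for the 10 genes (black diamonds at 0) and 48 kept neighbours (grey), by distance in kb from the start of the gene (x axis). On the control diet the neighbours lie between −0.54 and 0.35, and on the ethanol diet between −1.22 and 0.91.

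The genes whose log2(FPKM + 1) followed each of the 10 most closely over the 16 libraries were listed by Pearson's r, as a description across libraries that share groups and depth. For Slc34a2 they were Tigar (0.823) and Leap2 (0.785), and for Tbc1d31 Cabp2 (0.926) and Gpd2 (0.895). Cmas was followed by Pdhb (0.917, or 0.813 without WT ethanol library 2) and Mttp (0.908, or 0.805), and Osbpl1a by Mttp (0.958) and Dgat2 (0.952). Pdhb encodes a subunit of pyruvate dehydrogenase, Mttp the lipid loader of very-low-density lipoprotein and Dgat2 an enzyme of triglyceride synthesis. For Cyp2f2 the closest were Cyp4v3 (0.953) and Dgat2 (0.947). Without WT ethanol library 2 these were lower for Osbpl1a, at 0.814 and 0.738, and for Cyp2f2, at 0.687 and 0.699. Clip2 was followed by Pmepa1 (0.953) and Zfp777 (0.950), which stayed at 0.923 and 0.920 without that library. Rcan2 had Zfp36l1, the deleted gene, as the closest (0.863), then Top1mt (0.809). Rcan2 was chosen for being apart between the genotypes, so its r with the deleted gene carries that choice and nothing is read from it. Chchd7 was followed by Zfp771 (0.924) and Rnaseh2a (0.921), which were at 0.796 and 0.785 without that library. Serpine2 was followed by Zfp563 (0.923) and U2surp (0.913), which were at 0.790 and 0.771 without it, and Ccdc28b by Naa16 (0.853) and Abca5 (0.838).

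Correlations among the 10 genes over the 16 libraries carry the genotype difference by which they were chosen, and they ran from near 0 (0.0258 for Slc34a2 and Clip2) to strong. Osbpl1a and Cyp2f2 had an r of 0.971 over the 16 libraries and 0.833 without WT ethanol library 2. Within groups, after group means were taken away and that library was left out, the r was 0.551 for Osbpl1a and Cyp2f2, 0.730 for Tbc1d31 and Cmas, and −0.597 for Slc34a2 and Clip2. The pair Cmas and Serpine2 had −0.935 over all libraries and 0.227 within groups.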

How the data were processed

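Liver RNA was sequenced in 16 libraries, 4 in each of 4 groups (WT or LKO, control or ethanol diet), and groups were taken from the treatment label of each record. The authors deposited 1 table of FPKM values for 35275 gene IDs, and per the submitters' processing notes the tools were fastp, STAR 2.6.1, HTSeq and DESeq2 with build mm10. The annotation, the gene lengths and the strandedness are not given in the sources used here. Symbols for 34490 IDs and positions came from GENCODE M21 on GRCm38, the build the notes call mm10, and promoters from RefSeq on GRCm38.p6.

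The scale was log2(FPKM + 1), which understates the change of low genes, and tests were made in limma 3.58.1 (R 4.3.3) with a group-means model over all 16 libraries and eBayes with trend. P-values were two-sided, with Benjamini-Hochberg adjustment across the 11298 genes with at least 1 FPKM in at least 4 libraries. Whole reads were recovered from the steps of the deposited FPKM values: 100% of the values of 20520 genes above 0 in at least 4 libraries lay within 0.1 of a whole read, which gave totals of 9884479 to 24768501 reads and a voom fit as an alternative. That fit called 340 genes for ethanol against control in WT and 49 in LKO. The design foresaw edgeR for raw counts, which could not be the main test of FPKM.

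The 10 genes, the related lists and the markers were chosen with earlier results of these data known. Their planned test of the ethanol response is not used, since the ethanol libraries chose them. The rule named all 10 genes, list genes called and the 2 others of largest mean FPKM, the 2 genes most alike each, and nearest or called neighbours. Markers Tf and Rhbg had no unique row and were left out, and some genes of the related lists are not reported here or counted. Alternatives were another pseudocount (0.1), no filter, quantile normalization, array weights, voom, leaving out WT ethanol library 2 with a term for the split, and leaving out each library. The procedures were tested on simulated data.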

Additional observations from a re-analysis of the deposited data

Results flagged for a closer look

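For the 10 genes, Zfp36l1 and the 3 called list genes, 56 sets of 4 libraries were checked for a library whose gap to the nearest other exceeded Dixon's critical share of the range, which chance passes in about 1 of 20 sets. There were 5 such values, 3 of them in WT ethanol library 2. Cyp2f2 stood at 473 FPKM in LKO control library 4, with 242 to 259 FPKM in the other libraries of its group. Chchd7 stood at 25.8 FPKM in WT ethanol library 2, against 7.45 to 9.13 FPKM, and Serpine2 at 5.39 FPKM, against 0.545 to 0.898 FPKM. Plaur stood at 6.74 FPKM in the same library, against 3.02 to 3.10 FPKM. In LKO ethanol library 2, Plaur stood at 6.04 FPKM, against 0.463 to 0.830 FPKM.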

How the results depend on the processing

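No paired analysis was run, because the labels do not say which libraries pair across groups. Some titles carry neighbouring numbers across the diets, and the labels do not say what these mark. Of 440 recomputed genotype differences of the 10 genes, 20 moved by more than the spread. That none changed sign when 1 library was left out is fixed by the choice of genes wherever the groups do not overlap. On the control diet Clip2 overlapped after quantile normalization. The split term was fitted only together with leaving out WT ethanol library 2, so its values below change both choices. The cause of the changes was not tested.

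Of the 10 genes, those whose diets did not overlap in WT numbered 1 to 2 leaving out 1 library, and in LKO 3 to 4. Array weights and the split term give no such count. With array weights the WT ethanol group rests mostly on library 3, which had a weight of 5. Related genes called in WT were 1 without a filter, 38 with array weights and 24 with the split term, and 1 to 11 when 1 library was left out. In LKO they were 1 with quantile normalization, 10 with array weights and 17 with the split term (0 to 3 leaving out 1 library). For LKO against WT with array weights they were 1 with control feeding and 19 with ethanol, and 1 on the latter with the split term (0 to 3 leaving out 1 library).

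Over all genes, 472 called in WT (292 higher, 180 lower) became 283 without a filter, 932 with quantile normalization (470 and 462), 4334 with array weights (3539 and 795), 2229 with the split term and 146 to 1071 leaving out 1 library, the latter without WT ethanol library 2. In LKO the 48 (19 higher, 29 lower) became 18, 105, 869 (519 and 350), 1206 and 6 to 409, the latter again without that library. For genotype on the control diet 1 became 2 with quantile normalization, 260 with array weights, 9 with the split term and 1 to 5 leaving out 1 library. On the ethanol diet 9 became 3 without a filter, 3465 with array weights, 5 with voom, 178 with the split term and 1 to 387 leaving out 1 library.

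Ethanol differences also changed sign. In WT they were those of Cmas (−0.07 as reported, 0.44 with array weights, 0.48 with the split term, −0.30 to 0.44 leaving out 1 library), Osbpl1a (0.04 with the split term, −0.57 to 0.03, the latter without WT ethanol library 2), Rcan2 (−0.01 with array weights) and Serpine2 (−0.02 with a pseudocount of 0.1, −0.26 with array weights, −0.28 with voom, −0.38 with the split term, −0.38 to 0.30). In LKO, leaving out 1 library gave −0.03 to 0.06 for Osbpl1a, −0.20 to 0.08 for Rcan2, −0.06 to 0.54 for Tbc1d31 and −0.09 to 0.00 for Serpine2. Depth limits Ccdc28b (33 to 100 reads), Serpine2 in LKO (8 to 26) and Slc34a2 on the control diet (5 to 52).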
